A study of Mus musculus with 12 samples.

Results

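The Hox cluster genes are the homeobox genes of the clusters a, b, c and d, and all symbols of the form Hoxa, Hoxb, Hoxc or Hoxd followed by a number were taken from the expression table. These were 39 of the 24881 gene symbols, with 11 genes in cluster a, 10 in cluster b, 9 in cluster c and 9 in cluster d. The study sequenced RNA from mouse embryonic stem cells (ESCs) of the R1 line that carry the FUCCI reporters, fluorescent tags by which cells are sorted by cell cycle phase, and all cells were sorted in G1 phase. The groups were wild-type (WT) and P53 knockout (P53-/-) ESCs, each grown in serum or in 2i, a medium with inhibitors of MEK and GSK3 that holds ESCs in the ground state. Each of the 4 groups had 2 libraries, and the 4 P21 knockout and matching WT 2i samples of the series were not analysed here. P53-/- cells were made with CRISPR/Cas9 and grown from single cells, and the study used more than 1 clone, but the columns do not name the clone or culture behind a library. P-values therefore measure the spread between these libraries, which may be technical or, in P53-/-, may lie between clones. Values are FPKM, fragment counts scaled to transcript length and library size, as the authors deposited them, and the libraries of a group are given in column order.

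Hox genes encode homeodomain transcription factors that give cells their position along the body axis. Within a cluster the genes lie in the order in which they are used in the embryo, so that low-numbered genes (the paralogue groups at the 3′ end) act early and in the head and neck, and high-numbered genes at the 5′ end act late and in the tail, the ends of the limbs and the genital tract. Genes with the same number in different clusters are paralogues. In ESCs the clusters are known to be held silent by Polycomb complexes, while retinoic acid, Wnt signals and Cdx factors switch them on during differentiation.

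As a sum, the Hox genes stood low in serum and higher in 2i, in both genotypes. The summed level of the 39 genes in 2i was 58.3 and 35.7 FPKM for WT and 47.9 and 63.7 FPKM for P53-/-, and in serum it was 6.55 and 6.26 FPKM for WT and 6.24 and 6.24 FPKM for P53-/-. Every 2i library thus lay above every serum library, and the mean over the 4 libraries of a culture was 51.4 FPKM in 2i and 6.32 FPKM in serum, a ratio of 8.13. These sums take FPKM as deposited. Over all genes FPKM summed to 6695120 to 7755620 in 2i libraries and to 16222800 to 80308500 in serum libraries. Factors that set the median gene equal across libraries (median-ratio scaling) ran from 0.987 to 1.03. The highest value of any member in serum was 1.18 FPKM (Hoxc4), and the highest in 2i was 15.6 FPKM (Hoxa10). Of the 39 genes, 19 reached 1 FPKM in a 2i library and 2 did so in a serum library.

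**Figure D1:**
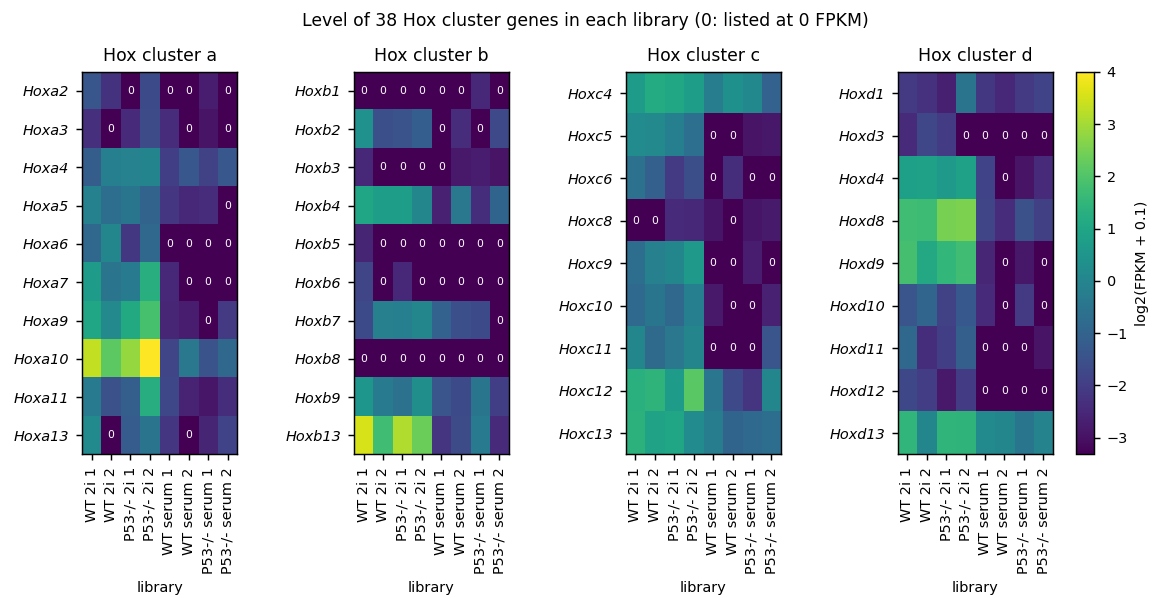
Level of 38 of the 39 Hox genes (rows, by cluster and number) in each of the 8 libraries (columns) as log2(FPKM + 0.1), where 0 marks a value listed as 0. Serum columns are dark for most genes, Hoxa10, Hoxb13, Hoxd8 and Hoxd9 are the brightest rows in 2i, and Hoxb8 is at 0 throughout.

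The sequences just upstream of 3 genes that were far higher in 2i than in serum and of the gene at 0 throughout are shown, so that promoters at both ends of the range can be set side by side. Each is the 250 bases before a RefSeq start (mouse build GRCm38.p6), read along the gene's strand, with CG pairs in capitals. Hoxa10 has 2 RefSeq starts and both are given. The windows are chr6:52234940-52235189 and chr6:52240855-52241104 for Hoxa10, chr6:52227371-52227620 for Hoxa9 (all on the minus strand), chr2:74704365-74704614 for Hoxd8 and chr11:96281655-96281904 for Hoxb8 (both on the plus strand), and none of them overlaps an exon of GENCODE M21.

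Hoxa10, the highest gene in 2i, start with 20 CG pairs: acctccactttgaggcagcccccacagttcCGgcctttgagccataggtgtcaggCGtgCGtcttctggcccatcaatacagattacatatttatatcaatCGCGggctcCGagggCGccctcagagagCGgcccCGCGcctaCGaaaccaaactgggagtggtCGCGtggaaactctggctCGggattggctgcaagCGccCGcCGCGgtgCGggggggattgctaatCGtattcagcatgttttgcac
Hoxa10, start with 7 CG pairs: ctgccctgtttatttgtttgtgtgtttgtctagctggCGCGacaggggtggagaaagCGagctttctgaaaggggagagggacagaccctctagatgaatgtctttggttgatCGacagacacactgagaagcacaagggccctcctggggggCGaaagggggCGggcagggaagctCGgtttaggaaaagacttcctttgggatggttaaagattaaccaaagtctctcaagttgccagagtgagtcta
Hoxa9: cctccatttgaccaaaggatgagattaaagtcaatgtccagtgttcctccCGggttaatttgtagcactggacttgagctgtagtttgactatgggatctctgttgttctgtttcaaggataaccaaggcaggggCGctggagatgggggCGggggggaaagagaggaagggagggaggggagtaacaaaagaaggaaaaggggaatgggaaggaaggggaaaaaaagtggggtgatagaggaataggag
Hoxd8, the highest gene of cluster d in 2i: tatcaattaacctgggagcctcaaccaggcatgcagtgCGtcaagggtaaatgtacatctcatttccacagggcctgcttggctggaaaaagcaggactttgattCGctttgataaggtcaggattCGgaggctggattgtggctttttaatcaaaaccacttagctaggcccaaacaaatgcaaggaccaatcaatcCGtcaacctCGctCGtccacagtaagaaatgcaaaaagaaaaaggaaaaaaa
Hoxb8, listed at 0 in all libraries: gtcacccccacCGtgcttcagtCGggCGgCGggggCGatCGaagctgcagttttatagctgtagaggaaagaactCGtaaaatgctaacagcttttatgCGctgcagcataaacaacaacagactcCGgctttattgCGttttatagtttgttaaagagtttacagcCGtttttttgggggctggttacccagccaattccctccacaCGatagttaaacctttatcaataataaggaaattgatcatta

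Hoxa9 has 3 CG pairs in its window, Hoxd8 has 6 and Hoxb8 has 12, so the gene at 0 had neither the fewest nor the most of the windows printed. RefSeq windows matched 22 of the 39 genes, with 24 starts. Over these 24 windows the number of CG pairs ran from 2 to 35 with a median of 12.5, beside a median of 6 over all 32851 windows. TATAAA, the core of the TATA box, was found on either strand in 4 of the 24 windows (16.7%, and 12.4% of all windows), among them that of Hoxb8 and the first of Hoxa10. CCAAT was found in 14 (58.3%, and 33.8% of all), and CTTTGAT, a sequence that TCF and LEF factors bind, in 1, that of Hoxd8 (4.17%, and 3.21% of all). No motif contains another on either strand, and a match is a description of the letters only.

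The 4 clusters shared the difference between cultures, but the number of genes behind it varied. Cluster a, on chromosome 6, had a mean sum of 18.5 FPKM in 2i and 1.74 FPKM in serum (10.6-fold). Cluster b, on chromosome 11, had 10.9 and 1.25 FPKM (8.71-fold), and cluster d, on chromosome 2, had 12.2 and 1.32 FPKM (9.27-fold). Cluster c, on chromosome 15, had 9.80 FPKM in 2i and 2.01 FPKM in serum, the smallest of the 4 ratios (4.88-fold). That order turned when the highest gene of each cluster was left out, a step chosen after seeing the data, with ratios of 6.89 for a, 3.89 for b, 4.62 for c and 6.80 for d. The order of the clusters in 2i was a, d, b and c. Library sums ran from 10.5 to 29.5 FPKM for a, from 8.81 to 14.9 FPKM for d, from 6.61 to 16.6 FPKM for b and from 8.47 to 10.9 FPKM for c. Within a library, cluster a had the highest sum in all 4 libraries of 2i, while the order of b, c and d varied from library to library. In serum clusters a and c lay above d in all 4 libraries. The order was not tested.

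**Figure D2:**
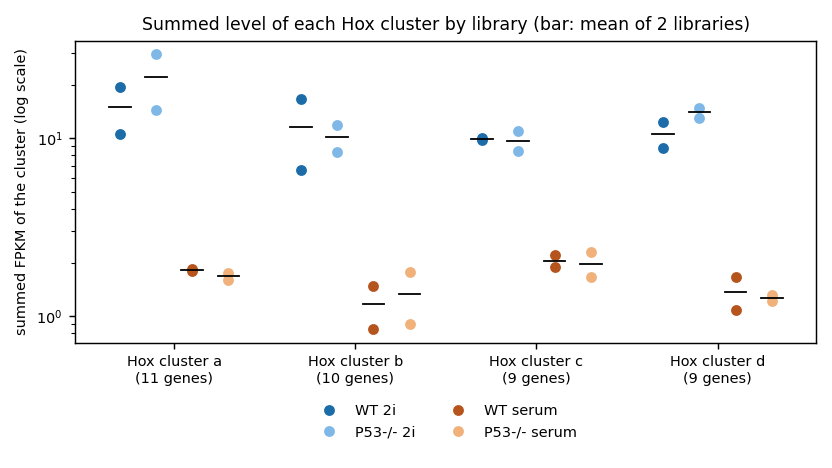
Summed FPKM of each Hox cluster (log axis), 1 point per library, coloured by group, with a bar at the mean of 2 libraries. All 2i points lie above all serum points in each cluster, and in 2i the genotypes overlap in clusters a, b and c while both P53-/- points of cluster d lie above both WT points, which they do not without Hoxd8.

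Single genes carried much of 3 of the sums. Hoxb13 made up 65.5% of the level of cluster b in 2i, Hoxa10 49.8% of cluster a, and Hoxd8 36.3% of cluster d, whereas Hoxc12 held 27.6% of cluster c. Without Hoxb13 the sum of cluster b fell to 4.17 FPKM in WT 2i and 3.33 FPKM in P53-/- 2i, and without Hoxa10 that of cluster a fell to 7.88 and 10.7 FPKM. The median gene told the clusters apart in another way: it stood at 0.715 FPKM in 2i in cluster a, 0.291 in b, 0.843 in c and 0.296 in d, beside 0.0730, 0.0527, 0.0280 and 0.0550 FPKM in serum. Cluster b thus had 1 gene far above the rest and many near 0, while in cluster c the mean in 2i ran from 0.0417 FPKM (Hoxc8) to 2.71 FPKM (Hoxc12).

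Genes listed at 0 were most frequent in cluster b. Hoxb8, which acts in the trunk and marks a lineage of microglia, was at 0 in all 8 libraries. Hoxb1, a hindbrain gene, was above 0 in a single library, P53-/- serum, at 0.0794 FPKM, and Hoxb5 in a single library, WT 2i, at 0.0679 FPKM. Hoxb6 was at 0 in 6 libraries and stood at 0.187 FPKM in WT 2i and 0.0772 FPKM in P53-/- 2i in the others. Of the 39 genes, 6 were at 0 in all serum libraries (Hoxa6, Hoxb5, Hoxb6, Hoxb8, Hoxd3 and Hoxd12) and 2 in all 2i libraries (Hoxb1 and Hoxb8). All members of clusters a, c and d were above 0 in at least 1 library.

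Counted by library, 31 to 36 Hox genes were above 0 in 2i and 19 to 26 in serum, and 22 of the 156 values in 2i were 0 beside 64 of 156 in serum. In all 4 libraries of 2i, 29 genes were above 0 (8 of cluster a, 5 of b, 8 of c and 8 of d), and in all 4 of serum 13 were (4, 3, 3 and 3). Depth overlapped between the cultures, and the 2 shallowest libraries were of 2i. Relative to the first WT serum library, the depth read from the steps between low values was 0.602 and 0.393 in WT 2i, 0.726 and 0.409 in P53-/- 2i, 0.534 in the other WT serum library and 0.940 and 0.710 in P53-/- serum. A gene listed at 0 may still be expressed below what 1 fragment shows, and in a bulk sample few cells with the RNA cannot be told apart from little RNA in every cell.

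The very low members rested on few fragments. Whole-fragment steps could be read for 20 of the 39 genes (values within 0.12 of a whole number, up to 10 fragments), and such numbers are estimates. Hoxd12, a posterior limb gene, had 4 and 2 fragments (WT) and 1 and 2 fragments (P53-/-) in 2i, and none in serum. Hoxa6 had 3 and 4 (WT) and 1 and 2 (P53-/-) in 2i, and none in serum. Hoxa2, which patterns the neural crest of the branchial arches, had 4 and 1 (WT) and 0 and 2 (P53-/-) in 2i, and in serum 1 in a single P53-/- library. Hoxa6 and Hoxd12 thus lay higher in 2i in both genotypes and Hoxa2 in WT, but each total was 10 fragments or fewer over all libraries.

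The Hox level was spread unevenly over the paralogue groups, and the classes compared hold unequal numbers of genes. The 16 genes of groups 9 to 13 summed to 33.4 FPKM in 2i and 3.32 FPKM in serum (10.1-fold) and made up 65.0% of the Hox level in 2i. The 11 genes of groups 5 to 8 summed to 8.80 and 0.546 FPKM (16.1-fold), and the 12 genes of groups 1 to 4 to 9.21 and 2.45 FPKM (3.75-fold). In 2i the groups 9 to 13 ranged from 19.5 to 43.4 FPKM over libraries, above the 8.61 to 9.77 FPKM of groups 1 to 4. All 4 serum libraries held less of each class than any 2i library, and the low-numbered genes had the smallest ratio of the 3 classes. The median gene of groups 9 to 13 stood at 0.938 FPKM in 2i and 0.0816 FPKM in serum, that of groups 5 to 8 at 0.489 and 0.0199 FPKM, and that of groups 1 to 4 at 0.372 and 0.0742 FPKM. The classes were not tested against each other.

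**Figure D3:**
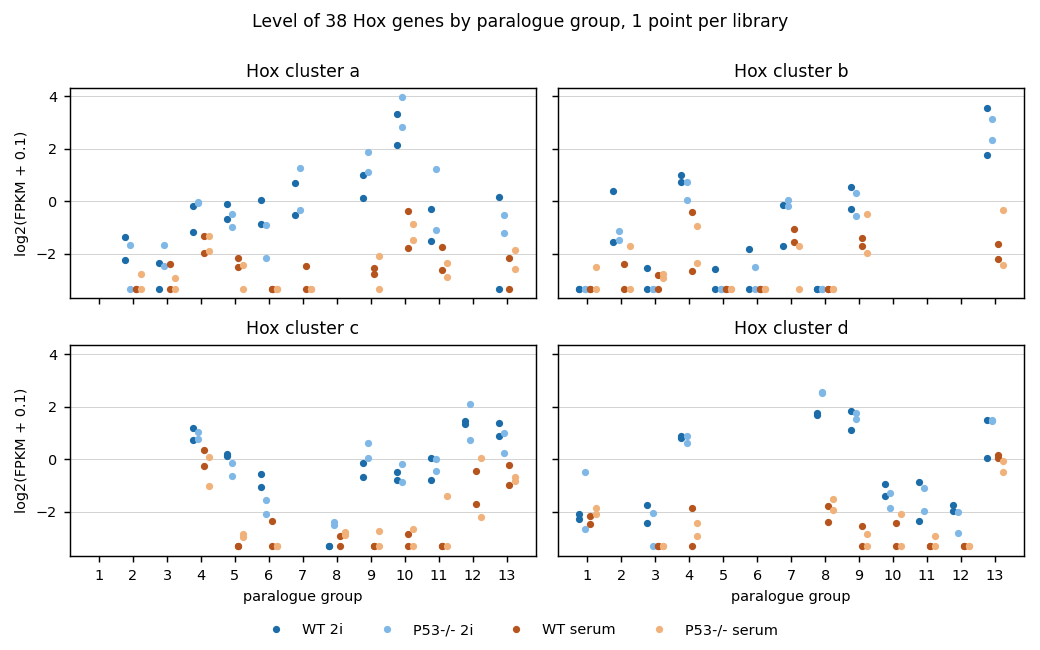
Level of 38 of the 39 Hox genes as log2(FPKM + 0.1) against the paralogue group, in 1 panel per cluster, with 1 point per library coloured by group. Points of 2i lie above those of serum at groups 9 and 10 of all panels that hold these genes except group 9 of cluster b, and the highest points are Hoxa10 and Hoxb13.

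Among the low-numbered genes, Hoxb4, known for its part in blood stem cells, stood at 1.91 and 1.57 FPKM (WT) and 1.58 and 0.936 FPKM (P53-/-) in 2i, against 0.0591 and 0.666 FPKM (WT) and 0.0944 and 0.417 FPKM (P53-/-) in serum. It was higher in every 2i library, and its serum libraries differed among themselves. Hoxc4, a neck-level gene with the highest single value of serum, stood at 1.55 and 2.17 FPKM (WT) and 1.98 and 1.61 FPKM (P53-/-) in 2i, against 0.743 and 1.18 FPKM (WT) and 0.962 and 0.389 FPKM (P53-/-) in serum. Hoxd4, its paralogue in cluster d, stood at 1.67 and 1.73 FPKM (WT) and 1.42 and 1.73 FPKM (P53-/-) in 2i, against 0.178 and 0 FPKM (WT) and 0.0316 and 0.0837 FPKM (P53-/-) in serum. In 2i Hoxc4 and Hoxd4 had much the same level per length, and in serum Hoxd4 lay below Hoxc4 in all 4 libraries. Hoxb2, a hindbrain gene that did not reach a mean of 0.5 FPKM, stood at 1.20 and 0.245 FPKM (WT) and 0.265 and 0.353 FPKM (P53-/-) in 2i, against 0 and 0.0922 FPKM (WT) and 0 and 0.208 FPKM (P53-/-) in serum. The low-numbered genes Hoxa2, Hoxa3, Hoxa4, Hoxb1, Hoxb3, Hoxd1 and Hoxd3 did not exceed 0.879 FPKM in any library.

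Of the middle genes, Hoxd8, which acts in the trunk, was high in every 2i library. It stood at 3.26 and 3.14 FPKM (WT) and 5.59 and 5.79 FPKM (P53-/-) in 2i, against 0.189 and 0.0892 FPKM (WT) and 0.253 and 0.161 FPKM (P53-/-) in serum. Hoxa7 stood at 1.51 and 0.603 FPKM (WT) and 0.707 and 2.32 FPKM (P53-/-) in 2i and at 0.0796 and 0 FPKM in WT serum, and both P53-/- serum libraries listed it at 0. Hoxd8 varied little within each 2i group, while Hoxa7 varied more than 2-fold between libraries of 2i. Hoxc5 stood at 1.05 and 0.982 FPKM (WT) and 0.797 and 0.539 FPKM (P53-/-) in 2i, against 0 and 0 FPKM (WT) and 0.0294 and 0.0390 FPKM (P53-/-) in serum. Its exons overlap those of Hoxc10 on the same strand in GENCODE M21, as those of Hoxd3 overlap Hoxd4, so that the reads of these pairs could have been split between them. The other genes of groups 5 to 8 (Hoxa5, Hoxa6, Hoxb5, Hoxb6, Hoxb7, Hoxb8, Hoxc6 and Hoxc8) stayed under 1 FPKM in all libraries, and their highest values, 0.931 FPKM for Hoxb7 and 0.928 FPKM for Hoxa6, were both in 2i.

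Of the high-numbered genes, Hoxa10, which gives lumbar vertebrae and the uterus their identity, stood at 9.86 and 4.35 FPKM (WT) and 7.05 and 15.6 FPKM (P53-/-) in 2i, against 0.191 and 0.670 FPKM (WT) and 0.266 and 0.454 FPKM (P53-/-) in serum. Hoxa9, known from blood progenitors and leukaemia, stood at 1.92 and 0.999 FPKM (WT) and 2.09 and 3.58 FPKM (P53-/-) in 2i, against 0.0735 and 0.0460 FPKM (WT) and 0 and 0.138 FPKM (P53-/-) in serum. Hoxa11, a gene of the forearm and kidney, stood at 0.720 and 0.254 FPKM (WT) and 0.366 and 2.28 FPKM (P53-/-) in 2i, against 0.201 and 0.0629 FPKM (WT) and 0.0357 and 0.0947 FPKM (P53-/-) in serum. In these 3 neighbours and in Hoxa7 the second P53-/- 2i library held the highest value, and the groups of 2i and serum did not overlap. Hoxa13, a gene of the digits and genital tract, stood at 1.03 and 0 FPKM (WT) and 0.339 and 0.600 FPKM (P53-/-) in 2i, against 0.125 and 0 FPKM (WT) and 0.0675 and 0.180 FPKM (P53-/-) in serum, so its cultures overlapped.

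In cluster b, Hoxb13, a gene of the tail and prostate, stood at 11.6 and 3.27 FPKM (WT) and 8.60 and 4.99 FPKM (P53-/-) in 2i, against 0.119 and 0.226 FPKM (WT) and 0.703 and 0.0850 FPKM (P53-/-) in serum. Hoxb9 stood at 1.35 and 0.710 FPKM (WT) and 0.576 and 1.16 FPKM (P53-/-) in 2i, against 0.280 and 0.210 FPKM (WT) and 0.625 and 0.158 FPKM (P53-/-) in serum. Hoxb13 was above serum in every 2i library, whereas Hoxb9 overlapped between the cultures in P53-/- ESCs.

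In cluster c, Hoxc12 stood at 2.41 and 2.62 FPKM (WT) and 1.56 and 4.25 FPKM (P53-/-) in 2i, against 0.641 and 0.207 FPKM (WT) and 0.117 and 0.937 FPKM (P53-/-) in serum. Hoxc13, which acts in hair and nails, stood at 2.49 and 1.74 FPKM (WT) and 1.89 and 1.07 FPKM (P53-/-) in 2i, against 0.751 and 0.412 FPKM (WT) and 0.467 and 0.531 FPKM (P53-/-) in serum. Hoxc9, which sets thoracic motor neuron identity, stood at 0.529 and 0.808 FPKM (WT) and 0.937 and 1.44 FPKM (P53-/-) in 2i, against 0 and 0 FPKM (WT) and 0.0491 and 0 FPKM (P53-/-) in serum. The 3 genes were higher in all 2i libraries than in any serum library. Hoxc10 and Hoxc11 followed with 0.445 to 0.789 and 0.474 to 0.935 FPKM in 2i, and both were listed at 0 in serum libraries of each genotype.

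In cluster d, Hoxd9 stood at 3.46 and 2.04 FPKM (WT) and 2.76 and 3.30 FPKM (P53-/-) in 2i, against 0.0734 and 0 FPKM (WT) and 0.0392 and 0 FPKM (P53-/-) in serum. Hoxd13, which acts in the digits, stood at 2.74 and 0.931 FPKM (WT) and 2.69 and 2.61 FPKM (P53-/-) in 2i, against 1.01 and 0.921 FPKM (WT) and 0.620 and 0.865 FPKM (P53-/-) in serum. Hoxd9 was near 0 in serum, while Hoxd13 kept a level near 1 FPKM there and overlapped between the cultures in WT. Hoxd10, Hoxd11 and Hoxd12 stayed low, with at most 0.426, 0.444 and 0.199 FPKM.

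Whether the difference between cultures exceeded the spread between libraries was tested for each gene with limma on log2(FPKM + 0.1), in 1 fit of the 4 groups, with p-values adjusted over all genes (Benjamini-Hochberg). Calls needed a fold change above 1.5 with an adjusted p below 0.1. Among all genes above 0 in any library, 25 of the 38 Hox genes were called higher in WT 2i than in WT serum, where 22.4% of the 18380 genes were, and none was called lower, where 21.6% were. In P53-/- ESCs 25 of 38 were called higher, beside 22.8% of all genes, and again none lower, beside 23.6%. The unadjusted p was under 0.05 for these 25 genes and no others in each genotype. The median log2 fold change of the 38 genes was 1.71 in WT and 1.65 in P53-/-, beside 0 over all genes. With each of the 8 libraries left out in turn, the count ran from 18 to 24 in WT and from 15 to 24 in P53-/-, and it was 15 without the second P53-/- 2i library and 16 without the second P53-/- serum library. In each of those 2 settings 1 Hox gene was called lower, Hoxd1 in the former and Hoxb1 in the latter.

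By cluster, the genes called higher in WT 2i were 7 of 11 in a, 4 of 9 in b, 7 of 9 in c and 7 of 9 in d. In P53-/- 2i they were 8 of 11 in a, 3 of 9 in b, 8 of 9 in c and 6 of 9 in d. Counted without a test, 25 of the 39 genes had all 4 2i libraries above all 4 serum libraries, beside 22.8% of all genes: 8 of 11 in cluster a, 3 of 10 in b, 8 of 9 in c and 6 of 9 in d. Within WT, 28 of the 39 genes had both 2i libraries above both serum libraries (34.1% of all genes), and within P53-/- 30 had (33.5% of all genes). Cluster b had the fewest genes called or separated. The difference between clusters was not tested, and many of these genes stood under 0.5 FPKM.

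Fold changes are given for the 15 genes with a mean of at least 0.5 FPKM, a level that most of them reached through 2i. Of these, 12 were called higher in WT 2i (27.2% of the 12572 genes tested) and 14 in P53-/- 2i (28% of the genes tested), and all 15 had a fold change above 0 in both genotypes. The largest in WT at the pseudocount of 0.1 was that of Hoxb13, at 4.56 ± 0.78 (log2, SE, adjusted p = 0.00169, limma). Hoxd9 followed at 4.39 ± 0.50 (adjusted p = 0.000247), Hoxd8 at 3.82 ± 0.34 (adjusted p = 8.95e-05) and Hoxa10 at 3.81 ± 0.60 (adjusted p = 0.00111). These 4 high- and middle-numbered genes also led in P53-/- ESCs together with Hoxa9. The order depends on the pseudocount, and with 0.01 the largest in WT were Hoxd9 (6.53), Hoxd4 (5.30) and Hoxb13 (5.15).

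In P53-/- ESCs the log2 fold change was 4.72 ± 0.50 for Hoxd9, 4.56 ± 0.60 for Hoxa10, 4.25 ± 0.34 for Hoxd8, 4.20 ± 0.60 for Hoxa9 and 4.11 ± 0.78 for Hoxb13, with adjusted p-values in limma from 5.23e-05 to 0.00256. For Hoxa7 the serum libraries of this genotype were both listed at 0 and no fold is given, whereas in WT it was 2.99 ± 0.76. Hoxd4 was called at 3.43 ± 0.59 in WT and 3.43 ± 0.59 in P53-/-, and Hoxa9 at 3.23 ± 0.60 in WT.

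**Figure D4:**
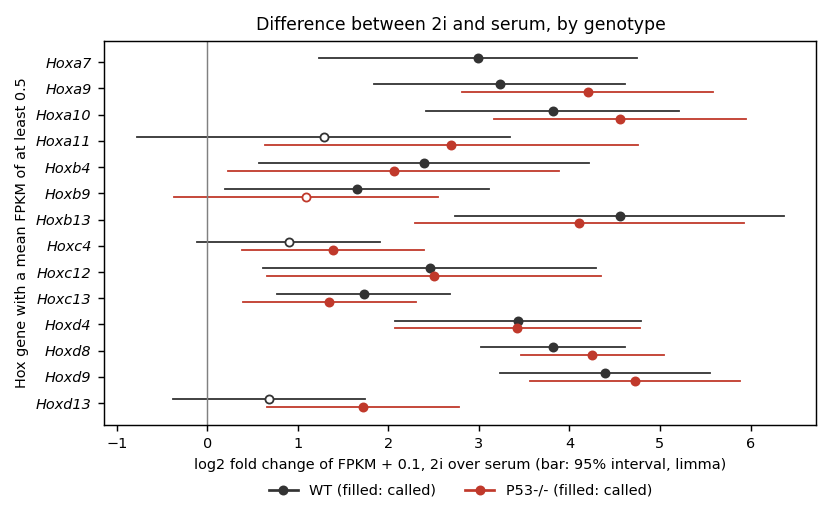
Log2 fold change of FPKM + 0.1 in 2i over serum for 14 of the 15 Hox genes with a mean of at least 0.5 FPKM, in WT (black) and P53-/- (red), with 95% intervals from limma. Filled points are called, and Hoxa7 has no P53-/- point because both serum libraries are listed at 0. All points lie right of 0, and Hoxa10, Hoxb13, Hoxd8 and Hoxd9 in both genotypes and Hoxa9 in P53-/- lie farthest from it.

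Some calls were lost with a library left out, where the fit also had fewer libraries. Hoxb4 was called at 2.39 ± 0.79 in WT and 2.06 ± 0.79 in P53-/-. It lost the call in WT without the first 2i library (2.26, adjusted p = 0.115) or the first serum library (1.26, adjusted p = 0.166), and in P53-/- without the first 2i library (1.71, adjusted p = 0.207) or the first serum library (1.35, adjusted p = 0.256). Hoxb9 was called in WT at 1.66 ± 0.63 (adjusted p = 0.0517), lost the call without the first 2i library (1.24), the first serum library (1.80) or the second (1.51) and after quantile normalization (1.18), and was not called in P53-/- at 1.09 ± 0.63 except without the first serum library (1.84). Of the 3 genes of cluster b tested at this level, Hoxb13 kept its call in both genotypes in all 17 alternative settings.

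Hoxc12 was called at 2.46 ± 0.80 in WT, not without the second serum library (1.82, adjusted p = 0.189), and at 2.50 ± 0.80 in P53-/-, not without the second 2i library (1.81) or the first serum library (1.37). Hoxc13 was called at 1.73 ± 0.41 and 1.35 ± 0.41, the latter not without the first P53-/- 2i library (0.96, adjusted p = 0.133). Hoxc4 missed the threshold in WT at 0.90 ± 0.44 (adjusted p = 0.109) and was called in P53-/- at 1.39 ± 0.44, although not without the first 2i library (1.25) or the second serum library (0.83). It passed in WT when either P53-/- serum library was left out (adjusted p = 0.0583 and 0.0540), with small RNA genes left out (0.0971) or with the 2 WT groups fitted alone (0.0789). The 3 abundant genes of cluster c thus ran from 0.90 to 2.46 in WT, under the differences of Hoxa10, Hoxb13, Hoxd8 and Hoxd9.

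Hoxd13 was not called in WT at 0.68 ± 0.46 (adjusted p = 0.227), with a fold change of -0.05 without the first 2i library and 1.42 (adjusted p = 0.00999) without the second, and was called in P53-/- at 1.72 ± 0.46. Hoxa11 was not called in WT at 1.28 ± 0.89 and was called in P53-/- at 2.70 ± 0.89, but not without the second 2i library (1.52) or the first serum library (2.44). These differences between genotypes were not called themselves: the interaction of culture and genotype was called for 0 of the 15 genes in limma, beside 0.207% of all genes, and no Hox gene had an unadjusted p under 0.05. Over all members above 0 in any library it was 0 of 38, beside 0.152% of all genes, again with none at an unadjusted p under 0.05.

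The same libraries bear on the question of whether P53 loss moved the Hox genes within a culture. In 2i, 0 of the 15 genes were called in limma, beside 10.3% of all genes, and 1 had an unadjusted p under 0.05. That gene was Hoxd8, which was higher in P53-/- by 0.81 ± 0.34 (95% interval 0.02 to 1.60, adjusted p = 0.189) and was called with a pseudocount of 1 (0.67, adjusted p = 0.0376). Both P53-/- libraries lay above both WT libraries in 2i for Hoxd8. Without the first WT 2i library 1 gene, Hoxd13, was called.

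For the other genes the intervals were wide. In 2i Hoxa10 differed by 0.67 (95% interval -0.72 to 2.06), Hoxb13 by 0.08 (-1.73 to 1.90) and Hoxd9 by 0.18 (-0.98 to 1.33). A change of 2-fold in either direction lies within the intervals of 7 of the 15 genes (Hoxa7, Hoxa11, Hoxb4, Hoxb9, Hoxb13, Hoxc12 and Hoxd4). Over all members above 0 in any library, 1 of 38 was called in 2i, beside 7.5% of all genes, namely Hoxc8, a gene of brachial motor neurons. It was listed at 0 in both WT 2i libraries and stood at 0.0883 and 0.0784 FPKM in P53-/- 2i, which are 2 and 1 fragments.

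In serum, 0 of the 15 genes were called by limma, beside 1.02% of all genes, and none had an unadjusted p under 0.05. The log2 differences ran from -0.53 (Hoxc4) to 0.53 (Hoxb13), and the interval of Hoxb13 from -1.28 to 2.35. Over all members above 0 in any library none of the 38 was called or had an unadjusted p under 0.05, beside 0.522% called of all genes. Without a test, 5 of the 39 genes had both P53-/- 2i libraries above both WT 2i libraries, beside 23.3% of all genes, and 4 had both below, beside 21.7%. In serum 3 lay above and 2 below, beside 21.7% and 18%. As shares of the 39 genes, these 4 counts lay under those over all genes, and members tied at 0 can be in none of them. The sum of cluster d in 2i was 13.9 ± 1.29 FPKM (SD, n = 2) in P53-/- and 10.5 ± 2.45 FPKM (SD, n = 2) in WT, with both P53-/- libraries above both WT libraries, whereas the sums of the other clusters overlapped between genotypes. Without Hoxd8 cluster d overlapped too, at 7.44 and 9.07 FPKM in P53-/- and 9.02 and 5.68 FPKM in WT.

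Trp53 itself, as a check of the labels, stood at 26.8 and 33.7 FPKM (WT) and 7.25 and 1.88 FPKM (P53-/-) in 2i, against 77.6 and 75.1 FPKM (WT) and 16.8 and 3.68 FPKM (P53-/-) in serum. All P53-/- libraries lay below all WT libraries of their culture, and the transcript was reduced rather than absent, with the first library of each P53-/- group well above the second. The 10 markers of ESCs summed to 3624 to 4551 FPKM. Of these, 2 were called higher and 4 lower in WT 2i (27.2% and 28.6% of all genes), and 2 higher and 6 lower in P53-/- 2i (28% and 30.1% of all genes). The lowest in 2i were Utf1, at 4.81 to 7.30 FPKM beside 46.3 to 55.6 FPKM in serum (-3.07 and -3.21), and Sall4 (-1.85 and -2.05). Those called higher were Fgf4 (0.98) and Pou5f1 (0.80) in WT 2i, and Dppa5a (0.71) and Fgf4 (0.62) in P53-/- 2i. Of 11 fibroblast markers, 9 were above 0 in a library and Col3a1 and Postn were at 0 in all, and the sum was 2.94 to 9.05 FPKM in 2i and 10.9 to 12.2 FPKM in serum. Thy1 made up most of the serum sums, and without it the sum was 8.07 and 6.04 FPKM (WT) and 2.57 and 4.25 FPKM (P53-/-) in 2i, against 2.90 and 3.33 FPKM (WT) and 1.79 and 2.72 FPKM (P53-/-) in serum, so that in WT it was higher in 2i. Of the 2 tested, Twist1 was called higher in WT 2i (1.33) and Thy1 lower (-3.53). The 7 mesoderm markers summed to 6.30 and 6.42 FPKM (WT) and 2.74 and 3.75 FPKM (P53-/-) in 2i, against 4.03 and 4.13 FPKM (WT) and 3.29 and 3.05 FPKM (P53-/-) in serum, and all 7 were above 0 in a library. Without T the sum was 4.24 and 2.70 FPKM (WT) and 1.86 and 2.37 FPKM (P53-/-) in 2i, against 3.80 and 3.84 FPKM (WT) and 3.29 and 2.89 FPKM (P53-/-) in serum, with the groups overlapping in WT. Of the 3 tested, 2 were called higher in WT 2i, namely T (3.02) and Kdr (0.76, adjusted p = 0.0878 in limma), and 0 lower (27.2% and 28.6% of all genes), with Eomes at -0.52 and not called. In P53-/- 2i T was called higher (2.90) and Eomes lower (-0.77). Thy1 and T were chosen for leaving out after their values were seen. The part of the fibroblast and mesoderm markers in the Hox levels was not tested. The 7 neural markers summed to 34.2 and 31.7 FPKM (WT) and 28.0 and 23.0 FPKM (P53-/-) in 2i, against 27.5 and 28.8 FPKM (WT) and 37.6 and 42.5 FPKM (P53-/-) in serum, higher in 2i in WT and lower in P53-/-. Of the 4 tested, 0 were called higher and 2 lower in each genotype (27.2% and 28.6% of all genes in WT, 28% and 30.1% in P53-/-). Those lower were Map2 in both (-2.43 and -1.73), Nes in WT (-0.74) and Tubb3 in P53-/- (-0.77). The 7 primitive endoderm markers summed to 1.63 to 4.36 FPKM in 2i and 1.28 to 2.93 FPKM in serum. Both P53-/- 2i sums (1.63 and 2.32 FPKM) lay above both P53-/- serum sums (1.28 and 1.45 FPKM), and in WT the cultures overlapped. The single tested marker, Gata4, was called higher in 2i in WT (1.19, adjusted p = 0.0440 in limma) and in P53-/- (1.81, adjusted p = 0.00748), and its part in the Hox levels was not tested either.

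Genes that act with or upstream of Hox genes were followed as lists. Of all genes tested, 27.2% were called higher and 28.6% lower in WT 2i than in serum, and 28% higher and 30.1% lower in P53-/-. TALE homeodomain proteins bind DNA together with Hox proteins, and 2 of the 7 tested were called higher in WT 2i and 1 lower, with a list median of -0.03 beside -0.02 over all genes, and 3 higher and 0 lower in P53-/- 2i (median -0.24 beside -0.03). Meis2 had the largest difference, at 2.69 in WT and 2.75 in P53-/- (log2). Pbx4 rose by 1.04 and 1.52, and Meis1 was called in P53-/- at 1.12. Of the Cdx and ParaHox genes, which activate or resemble Hox genes, 2 of 6 were tested. Cdx1 was called at 1.18 in WT and 1.34 in P53-/-, standing at 9.19 and 9.51 FPKM under 2i and 4.76 and 3.48 FPKM under serum in WT, and Cdx2 was not called (1.08 and 1.21).

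The retinoic acid list moved in both directions. In WT, 5 of 11 tested genes were called higher in 2i and 3 lower (27.2% and 28.6% of all genes, list median 0.71 beside -0.02), and in P53-/- 3 higher and 5 lower (28% and 30.1% of all genes, list median -0.06 beside -0.03). The synthesis enzymes Aldh1a3 (4.33 in WT and 5.31 in P53-/-) and Aldh1a2 (0.97 and 2.30) and the reductase Dhrs3 (2.19 and 1.99) were called higher in both genotypes. The receptors Rarg (-2.01 and -3.99) and Rara (-1.73 and -2.51) and the binding protein Crabp2 (-2.14 and -1.92) were called lower in both. The degrading enzymes Cyp26a1, Cyp26b1 and Cyp26c1 did not reach the level for a test. In 2i, P53-/- ESCs had 4 of the 11 called lower than WT (5.97% of all genes), namely Crabp1 (-2.43), Rarg (-1.74), Rxra (-1.21) and Rdh10 (-0.65), and for Rarg the interaction was called (-1.98, adjusted p = 0.0260 in limma).

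Polycomb subunits, which hold Hox clusters silent, were more often called lower than higher in 2i. Of 30 tested, 14 were lower and 4 higher in WT (28.6% and 27.2% of all genes), with a median of -0.52 beside -0.02 over all genes, and 14 lower and 6 higher in P53-/- (30.1% and 28% of all genes, median -0.49 beside -0.03). Jarid2 (-2.13 and -3.00), Rybp (-2.08 and -1.88), Pcgf2 (-2.05 and -2.06) and the methyltransferase Ezh2 (-1.93 and -1.51) had the largest reductions in WT. Cbx8 (2.71 and 2.68), Phf1 (1.56 and 1.36) and Pcgf1 (1.37 and 1.04) were among those called higher. The direction of the list was therefore not shared by all its members.

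Trithorax and MLL proteins and the H3K27 demethylases oppose Polycomb, and most of them were called lower in 2i. Of the 12, 8 were called lower and 1 higher in WT (28.6% and 27.2% of all genes, list median -0.98), and 10 lower and 2 higher in P53-/- (30.1% and 28% of all genes, list median -1.09). Kmt2a, which encodes the MLL1 methyltransferase known to maintain Hox expression, stood at -2.04 and -2.52, Psip1 at -1.71 and -1.42, the insulator protein Ctcf at -1.67 and -1.51 and Ash1l at -1.40 and -1.72. Wdr5 was called higher at 0.79 and 0.83, and Ash2l in P53-/- at 0.89.

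Among inducers of posterior and mesodermal fate, 7 of 16 were tested. In WT 2i, 2 were called higher and 3 lower (27.2% and 28.6% of all genes, list median -0.52 beside -0.02). In P53-/- 2i, 2 were called higher and 4 lower (28% and 30.1% of all genes, list median -0.77 beside -0.03). T, the mesodermal transcription factor brachyury, stood at 2.06 and 3.72 FPKM (WT) and 0.878 and 1.38 FPKM (P53-/-) in 2i, against 0.227 and 0.285 FPKM (WT) and 0 and 0.161 FPKM (P53-/-) in serum, with log2 differences of 3.02 and 2.90. Nkx1-2 stood at 3.65 and 8.57 FPKM in WT 2i, and both WT serum libraries listed it at 0. The RNA-binding proteins Lin28a (-3.35 and -4.23) and Lin28b (-3.32 and -2.85) and the nuclear receptor gene Nr6a1 (-0.92 and -1.38) were called lower in both genotypes.

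The genes that flank the clusters were called in both directions. Of 8 tested neighbours, 2 were called higher and 3 lower in WT 2i (27.2% and 28.6% of all genes), and 2 higher and 2 lower in P53-/- 2i (28% and 30.1% of all genes). Beside cluster a, Skap2 in WT stood at 69.6 and 63.0 FPKM under 2i and 42.2 and 38.6 FPKM under serum (0.71), Hibadh at 47.5 and 41.2 in WT 2i and 42.3 and 43.3 in WT serum (0.05, not called), and the non-coding RNA Halr1 at 3.56 and 1.34 in WT 2i and 18.3 and 24.6 in WT serum (-3.21). Near cluster c, Smug1 was called higher (1.01) and Cbx5 lower (38.7 and 35.2 FPKM in WT 2i, 101 and 108 FPKM in WT serum), while Calcoco1 was not called (0.07). Beside cluster d, Mtx2 was not called (-0.04) and Lnpk was called lower in WT (-0.78). Evx1 and Evx2, the homeobox genes at the 5′ ends of clusters a and d, stayed at or under 0.334 and 0.0585 FPKM, as Skap1 and Ttll6 beside cluster b stayed at or under 0.269 and 0.890 FPKM.

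Of 16 non-coding RNAs of the clusters in the table, 9 were listed at 0 in all libraries, among them Hotair and the microRNA genes Mir10a, Mir10b and Mir196b. Short microRNAs are poorly held by such libraries. Hotairm1, a non-coding RNA of cluster a, stood at 11.2 and 3.58 FPKM (WT) and 21.4 and 17.9 FPKM (P53-/-) in 2i, against 4.06 and 0 FPKM (WT) and 1.70 and 5.05 FPKM (P53-/-) in serum. It was called higher in WT (3.32, adjusted p = 0.0866 in limma) and not in P53-/- (2.69, adjusted p = 0.148), and its WT libraries overlapped between the cultures. Gm53, a non-coding RNA between Hoxb13 and Hoxb9, stood at 11.3 and 14.8 FPKM (WT) and 5.06 and 6.66 FPKM (P53-/-) in 2i, against 2.92 and 3.53 FPKM (WT) and 2.37 and 1.22 FPKM (P53-/-) in serum, was called in both genotypes (1.98 and 1.71) and was lower in P53-/- 2i than in WT 2i (-1.14, adjusted p = 0.0707 in limma). Hoxa11os, antisense to Hoxa11, stood at 0.632 and 0.429 FPKM (WT) and 0.116 and 1.65 FPKM (P53-/-) in 2i and at most 0.0455 FPKM in serum, and so was highest in the library in which Hoxa11 was highest. Libraries were made with a stranded kit, and whether counting used the strand is not given in the sources used here.

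How far reads could be shared between Hox genes was read from their longest open reading frames in GENCODE M21. Of the 741 pairs, 19 shared a run of over 30 identical bases and 1 a run of over 50, and the median longest run was 14 bases. A fragment lying wholly within such a run matches both genes of its pair.

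In all, 10 Hox genes overlapped an exon on the opposite strand and 9 an exon of another gene on the same strand, so that their values may hold reads of the partner. Hoxa10, Hoxb13, Hoxd8 and Hoxd9 were in neither set, whereas Hoxa9 overlaps Mir196b and Hoxd4 overlaps Hoxd3 on the same strand, and Hoxa7 overlaps Hoxaas3 on the opposite strand.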

How the data were processed

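The data are RNA-seq of R1 ESCs with FUCCI reporters, sorted in G1, from 2 genotypes and 2 culture media. Per the labels, total RNA was depleted of ribosomal RNA, reverse-transcribed with random primers and made into stranded libraries. Expression was deposited as FPKM, with genes in lines and libraries in columns. The submitters' processing notes name STAR, Cufflinks, DESeq2 and mm9 without roles, and the annotation and read length are not given in the sources used here. Random primers and total RNA allow unspliced RNA to contribute, and FPKM rests on the transcript length used.

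Columns name genotype and culture only, so numbers within a group follow column order. FPKM + 0.1 was log2-transformed, which understates changes of low genes, and tested with limma (version 3.58.1, R 4.3.3) where the mean over libraries reached 0.5 FPKM. All 4 groups entered the same model, with eBayes and a trend. Calls needed a fold change above 1.5 and a Benjamini-Hochberg adjusted p below 0.1. The fitting code was tested on simulated data. No 2 libraries held identical values.

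Depth in fragments is not given in the table. Relative depth was estimated from the steps between low FPKM values (under 0.3 FPKM), and fragment numbers from values within 0.12 of whole steps, for genes with at least 3 such values. These estimates carry no interval. Overlaps and reading frames came from GENCODE M21 (GRCm38) and upstream windows from RefSeq (GRCm38.p6). The files use mm9, so no gene coordinates are given in that build. All 39 genes matched GENCODE by symbol, and 17 had no RefSeq window.

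Values in every library are given for Hox genes that averaged 0.5 FPKM or more or reached 1 FPKM in a library, and other members by range, fragments or count. From each list, called genes were named by size of fold change, up to 4 in each direction. Some genes that meet these rules are counted in the totals but not reported here. The members and lists were chosen with earlier results of these data known. Alternatives were pseudocounts of 1 and 0.01, other filters, median-ratio and quantile scaling, removal of 1278 small RNA genes, fits of the compared groups alone, eBayes without trend and each library left out. Python 3.11.15 with pandas 2.3.3 was used for tables and matplotlib 3.10.9 for plots.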

Additional observations from a re-analysis of the deposited data

Results flagged for a closer look

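Hoxc5 was the Hox gene whose P53-/- libraries both lay on opposite sides of WT in the cultures. In 2i both P53-/- libraries (0.797 and 0.539 FPKM) lay below both WT libraries (1.05 and 0.982 FPKM), a log2 difference of -0.56 (95% interval -1.29 to 0.17, adjusted p = 0.366 in limma). In serum both P53-/- libraries (0.0294 and 0.0390 FPKM, about 1 fragment each) lay above the WT libraries, which were listed at 0. The interaction was -0.99 with an unadjusted p of 0.0583 and an adjusted p of 0.446 in limma over all genes above 0 in any library, so it was not called.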

How the results depend on the processing

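No paired analysis was possible because the columns carry no replicate number, and a number in column order pairs nothing. Most of the 15 Hox genes with a mean of at least 0.5 FPKM reached it through 2i, and this choice favours a kept direction between cultures. In WT their fold change between cultures kept its direction and its side of the threshold in 127 of 130 comparisons with another setting. In P53-/- it did so in 130 of 130. With a library left out in WT the fold change reversed for Hoxd13 (-0.046 to 1.42). In the contrasts of P53 loss the genes with the smallest p and the extreme fold changes were followed. Among these, direction reversed without the second P53-/- 2i library for Hoxa11 in 2i (-0.21 to 2.14 over libraries left out), without the first P53-/- serum library for Hoxb13 in serum (-0.53 to 1.59) and for Hoxb9 in the interaction (-1.31 to 0.18), and without the second for Hoxc4 in serum (-1.09 to 0.031). The cause was not tested.

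The number of Hox genes called between cultures ran from 10 to 13 in WT and from 11 to 14 in P53-/- with a library left out, and was 25 in each over all genes above 0, where more genes were tested. Over all genes above 0, alternatives chosen after seeing the data gave 19 and 24 in WT and 20 and 24 in P53-/- with pseudocounts of 1 and 0.01, and 18 to 24 and 15 to 24 with a library left out. For P53 loss in 2i the number was 1 in place of 0 with a pseudocount of 1 and over all genes above 0, and 0 to 1 with a library left out. In serum and for the interaction it was 0 under all settings run.

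Calls over all genes for P53 loss in 2i fell from 1299 to 193 with the compared groups fitted alone and ran from 491 to 1224 with a library left out. In serum they fell from 128 to 37 and ran from 52 to 148. For the interaction they rose from 26 to 66 with a pseudocount of 1, to 40 without small RNA genes and to 40 without a trend, and ran from 19 to 69.

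Without its highest gene, the summed FPKM of a cluster in P53-/- 2i, WT 2i, P53-/- serum and WT serum was 10.7, 7.88, 1.31 and 1.38 for cluster a. It was 6.79, 7.39, 1.44 and 1.63 for cluster c. For cluster b it was 3.33 and 4.17 in P53-/- and WT 2i, and for cluster d 8.25, 7.35 and 1.06 in P53-/- 2i, WT 2i and P53-/- serum. Detected at 0.5 FPKM in all 4 2i libraries were 4, 3, 5 and 4 genes of clusters a to d, and in all 4 serum libraries 1, 0, 0 and 1. At 0.1 FPKM cluster d had 5 genes in 2i, and clusters b and d 1 each in serum. Depth limits what a value of 0 shows: the shallowest 2i library held 0.393 of the fragments of the deepest serum library.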
